A study of Mus musculus with 6 samples.

Results

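The basement membrane is the thin sheet of matrix on the abluminal side of ECs. Collagen IV and laminin each form a network in it, nidogens and heparan sulfate proteoglycans join these networks, and in the CNS ECs, pericytes and astrocytes all add to it. Collagen chains are hydroxylated and folded inside the cell before they are secreted, and metalloproteases and their TIMP inhibitors remodel the sheet afterwards. The genes of this matrix were followed in ECs sorted from mouse spinal cord. They were 39 genes given by name, all of them found among the 56748 genes of the count table, and they were arranged here in 7 groups by role. RNA-Seq libraries were made from 6 mice at P16, 1 library per mouse. The 3 control mice carried the floxed Tardbp gene (Tardbpflox) and no Cre. The 3 TDP-43iΔEC mice carried the same floxed gene with Cdh5(PAC)-CreERT2, a tamoxifen-inducible Cre expressed from the Cdh5 promoter, which is active in ECs throughout the body. Both groups received tamoxifen (1 mg/mL) from P5 to P7, so the groups differed by Cre and by the deletion, and the mice were of mixed sex.

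Tardbp, the targeted gene, stood at 1973, 2282 and 2069 normalized counts in the controls, against 982, 599.9 and 433 in TDP-43iΔEC mice, so that the groups did not overlap. Here and in what follows, the 3 values of a group are those of its mice 1, 2 and 3. A normalized count is the deposited count divided by a factor that sets the 6 libraries to the same scale. Library totals ran from 25704871 to 47270654 counts, and 3 counts corresponded to 0.0635 to 0.117 CPM (counts scaled to the library total). EC markers were high in every library, with 10 of 10 detected and sums of 11466 to 15152 CPM in the controls and 11315 to 13797 CPM in TDP-43iΔEC mice (exact permutation p = 0.8). Cldn5 was the largest part of this sum. In normalized counts, a different scale from CPM, 9 of the 10 markers had a lower mean in TDP-43iΔEC mice. On that scale Flt1 (log2 difference -0.69, SE 0.11, limma adjusted p = 0.0635), Kdr and Tek did not overlap between the groups. Red cell markers summed to 6336 to 9759 CPM in the controls and 2197 to 2909 CPM in TDP-43iΔEC mice (exact p = 0.1, the smallest possible). In limma, Hba-a1, Hba-a2, Hbb-bs and Hbb-bt were lower with adjusted p of 0.0209, 0.0209, 0.0269 and 0.0209, and Alas2 with 0.360. Oligodendrocyte markers summed to 368 to 617 and 31.0 to 613 CPM (exact p = 0.3), neuron markers to 6.06 to 17.1 and 1.13 to 3.51 CPM (exact p = 0.1) and microglia markers to 0 to 3.84 and 1.36 to 8.64 CPM (exact p = 0.7). Their part in the matrix gene levels was not tested. The 18S ribosomal RNA gene took 14.8%, 14.8% and 18.5% of the counts in the controls and 8.04%, 8.18% and 13.6% in TDP-43iΔEC mice, without overlap, and mitochondrially encoded genes took 1.67%, 6.46% and 3.09% against 6.02%, 4.98% and 6.11%. The part of these shares in the matrix gene levels was not tested. A pair of libraries stood apart. Control mouse 2 had counts for 12972 genes, the fewest of the 6, and for 31 of the 39 matrix genes, against 36 to 38 in the other libraries. TDP-43iΔEC mouse 1 was the one library with no count of Xist and with counts of the chromosome Y genes Ddx3y, Eif2s3y, Kdm5d and Uty.

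The share of the counts that fell on matrix genes was 1.65% to 2.06% in the controls, against 1.92% to 2.26% in TDP-43iΔEC mice. This share and all CPM values are relative to the library total. With scaling by library size only, the median log2 difference was 0.18 over all genes tested and 0.38 over the tested matrix genes. The levels of the matrix genes differed widely (plot of the matrix genes in each library). Per kilobase of the canonical transcript, the highest mean level in control mice was that of Sparc, a secreted glycoprotein that binds collagen, at 141153 ± 12235 (SD, n = 3) normalized counts per kb. Sparcl1, its relative that is also made by astrocytes, followed at 32724 ± 4454, then Egfl7, a protein that ECs deposit in their matrix, at 15418 ± 918, and the collagen IV chain genes Col4a1 and Col4a2 at 5166 ± 256 and 4409 ± 649. The ranges of the 3 control mice did not overlap between neighbours down to Col4a2. From Col4a2 to Agrn, each gene overlapped the next in this order, which ran Col4a2, Serpinh1, Nid1, Bgn, Plod1, Lama4, Nid2, Timp3, Agrn. At the low end, the fibrillar collagen genes Col1a2 and Col3a1 had 123 ± 27.5 and 121 ± 25.1 normalized counts per kb, and the levels of Col15a1 and Vcan were under 1.

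**Figure D1:**
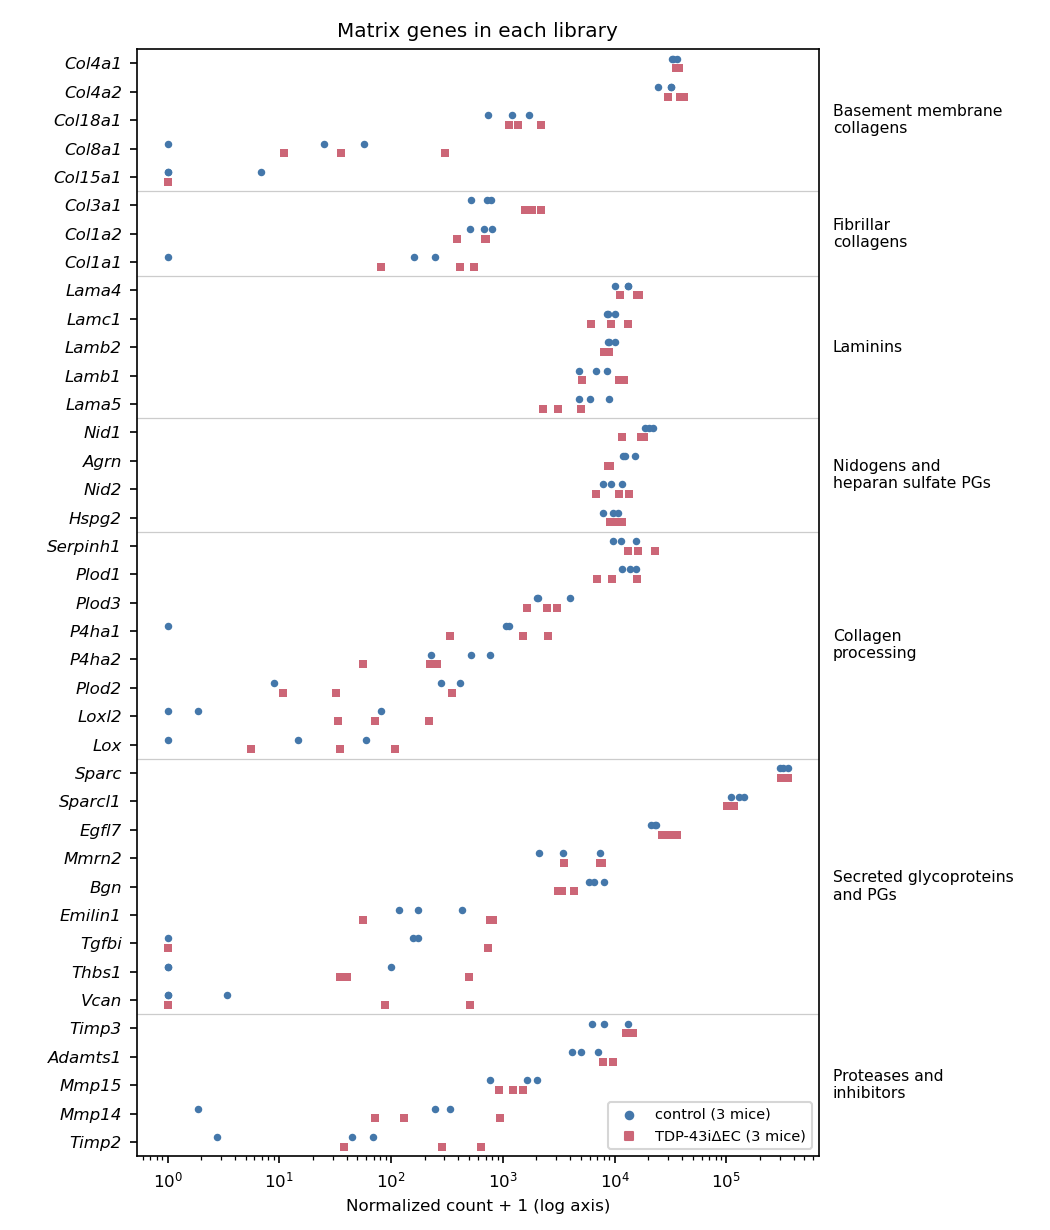
Normalized counts of the 39 matrix genes in each of the 6 libraries, drawn as normalized count + 1 on a log axis, with genes grouped by role and ordered by mean level within a group; circles are control mice and squares TDP-43iΔEC mice. Sparc sits at the top of the scale in all 6 libraries, and points at 1 on the axis are libraries with no count of that gene.

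The question was which matrix genes differed between TDP-43iΔEC and control ECs. Of the 39 genes, 37 passed the filter on low counts and were tested, and Col15a1 and Vcan were not. None of the 37 had a limma adjusted p below 0.05 over the 13107 genes tested, of which 0.137% did. The lowest adjusted p of a matrix gene was 0.286. At an unadjusted limma p below 0.05 there were 7 matrix genes, or 18.9% of those tested, against 9.27% of all genes. In 4 of them (Col3a1, Egfl7, Adamts1 and Timp3) the level was higher in TDP-43iΔEC mice, where the background was 4.26%, and in 3 (Bgn, Agrn and Lama5) it was lower, where the background was 5.0%. In 6 matrix genes, or 16.2%, the normalized counts of the groups did not overlap, against 15.0% of all genes. They were Col3a1, Egfl7 and Adamts1 on the higher side (background 7.93%) and Bgn, Agrn and Nid1 on the lower side (background 7.10%). The median log2 difference of the tested matrix genes was 0.18, with 21 positive and 16 negative, beside a median of -0.02 over all genes. The 25 tested genes with a mean of at least 1000 normalized counts had a median of 0.051 (13 positive, 12 negative) and the other 12 a median of 1.73 (8 positive, 4 negative). Without control mouse 2 the median was 0.052, beside -0.17 over all genes, and with at least 10 counts required in every library it was 0.027. edgeR's quasi-likelihood test gave 0 matrix genes past the adjusted threshold and 6 at an unadjusted p below 0.05, while DESeq2 gave 2 past it, Col3a1 and Bgn, where 1.97% of the genes it adjusted were called. Standard errors ran from 0.09 for Sparc to 3.60 for Tgfbi, and 25 of the 37 genes had one under 0.5 (plot of the change of the tested matrix genes). In these sorted bulk samples, fewer cells of a type and less RNA per cell cannot be told apart.

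**Figure D2:**
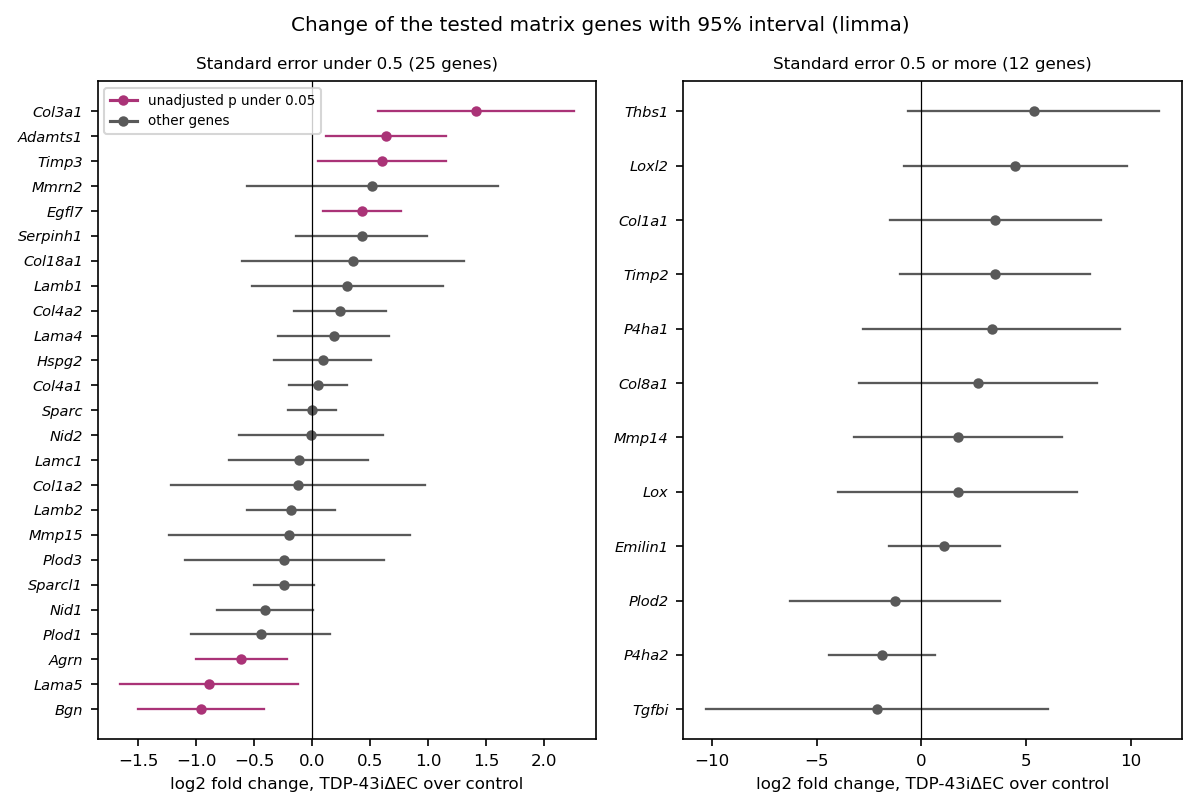
Log2 fold change of TDP-43iΔEC over control mice for the 37 tested matrix genes with its 95% interval from limma (n = 3 per group), in panels for the 25 genes with a standard error under 0.5 and the 12 genes with a larger one; the panels have different x axes. Intervals of 7 genes, drawn in purple, leave out 0: Col3a1, Adamts1, Timp3 and Egfl7 on the right and Agrn, Lama5 and Bgn on the left.

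The stretches of 150 bases before the start of the canonical transcript are given for the 5 matrix genes that had an unadjusted p below 0.05 and no overlap of the groups. They flank the annotated start of that transcript. In Egfl7 this start lies inside the gene, whose annotated span begins upstream at 26468286. They were read from GRCm39 in the direction of the gene, and none of them holds an annotated exonic base. Capitals mark TATAAA, the core letters of a TATA box, wherever they lie in the stretch. They also mark GGGCGG or its reverse complement, the GC box letters that Sp1-type factors are known to bind. The TATAAA of Col3a1 lies in the part of its stretch far from the transcript start, and that of Adamts1 close to the start. Whether any match is used was not measured. CCAAT was also searched on both strands and is not in these 5 stretches.
Col3a1 (chr1:45350548-45350697, + strand): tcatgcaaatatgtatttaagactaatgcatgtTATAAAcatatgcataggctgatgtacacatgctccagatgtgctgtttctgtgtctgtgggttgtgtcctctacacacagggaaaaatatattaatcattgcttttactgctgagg
Adamts1 (chr16:85600010-85600159, - strand): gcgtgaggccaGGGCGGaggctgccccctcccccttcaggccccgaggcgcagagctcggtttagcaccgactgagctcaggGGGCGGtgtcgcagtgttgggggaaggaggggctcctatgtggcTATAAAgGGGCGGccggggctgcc
Egfl7 (chr2:26473603-26473752, + strand): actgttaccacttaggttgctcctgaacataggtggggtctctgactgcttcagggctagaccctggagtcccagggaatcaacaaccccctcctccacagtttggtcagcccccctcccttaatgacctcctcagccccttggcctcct
Bgn (chrX:72527058-72527207, + strand): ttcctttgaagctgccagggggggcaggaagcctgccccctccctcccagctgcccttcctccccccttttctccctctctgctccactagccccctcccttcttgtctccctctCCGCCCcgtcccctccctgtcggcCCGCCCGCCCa
Agrn (chr4:156282015-156282164, - strand): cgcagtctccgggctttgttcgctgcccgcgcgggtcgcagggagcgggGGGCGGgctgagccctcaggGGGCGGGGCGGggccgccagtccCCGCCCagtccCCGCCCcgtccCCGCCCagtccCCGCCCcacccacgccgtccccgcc
The stretch of Col3a1 was 37.3% G and C and that of Agrn 82.7%. Background shares are over the stretches of the same length before 21757 protein-coding genes, whether or not they had counts in these cells. This background is therefore not limited to tested genes. TATAAA was found in the stretches of Col3a1 and Adamts1 alone among the 39 genes, or 5.13%, against 7.29%. GGGCGG was found in 19 of the 39, or 48.7%, against 32.6%, with 3 matches in Adamts1, 3 in Bgn (of which 2 share bases) and 7 in Agrn (of which 2 share a base). CCAAT was found in 10 of the 39, or 25.6%, against 27.7%.

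Among the basement membrane collagens, no gene had an unadjusted p below 0.05 in limma and the 4 tested log2 differences were all positive (Col8a1 turned to -0.96 without both libraries that stood apart). Col4a1 and Col4a2 encode the 2 chains of the main collagen IV trimer. They lie head to head on chromosome 8 (GRCm39, Col4a1 from 11248423 to 11362826 on the minus strand and Col4a2 from 11362471 to 11499287 on the plus strand), so their annotated ends overlap. Col4a1 stood at 32884, 36089.8 and 33549 normalized counts in the controls, against 35267, 36499.6 and 37595 in TDP-43iΔEC mice. These groups overlapped, and the log2 difference was 0.05 with a 95% interval from -0.20 to 0.30. Col4a2 stood at 32289, 24682 and 32249.7, against 30174, 38851 and 41842 in TDP-43iΔEC mice, with a log2 difference of 0.24 (SE 0.18, limma adjusted p = 0.670). Its lowest value was that of control mouse 2, and the groups overlapped through TDP-43iΔEC mouse 1. Its unadjusted p was below 0.05 under scaling by library size, quantile normalization and EC marker scaling (log2 differences of 0.43, 0.44 and 0.47), and the difference was 0.092 without control mouse 2. The ratio of Col4a1 to Col4a2 counts was 1.02, 1.46 and 1.04 in control mice and 1.17, 0.939 and 0.898 in TDP-43iΔEC mice, where mouse 1 again lay within the control range. Col18a1, whose C-terminal end gives endostatin, ranged from 730.4 to 1702 in control and from 1144 to 2186 in TDP-43iΔEC mice (log2 difference 0.35, SE 0.42). Col8a1, a short-chain network collagen gene, had at most 304 normalized counts in any library and Col15a1 at most 5.82.

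The fibrillar collagen gene Col3a1 was the one collagen gene of the 39 with an unadjusted p below 0.05. It encodes the chain of type III collagen, a product of fibroblasts and of cells of the vessel wall, and spans 51 exons on chromosome 1 from 45350698 to 45395840. Col3a1 stood at 514, 721 and 779.9 normalized counts in the controls, against 1566, 2194 and 1821 in TDP-43iΔEC mice. Every TDP-43iΔEC mouse lay above every control mouse, and the log2 difference was 1.41 (SE 0.37, 95% interval 0.57 to 2.26), a fold of 2.66, with a limma adjusted p = 0.308. DESeq2 gave 1.47 (SE 0.41, adjusted p = 0.0220). The unadjusted p stayed below 0.05 in each of 18 alternative fits, and the log2 difference was 1.60 without both libraries that stood apart.

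Type I collagen genes showed no such separation. Col1a2 stood at 504, 797 and 680.1 normalized counts in the controls, against 696, 704 and 385 in TDP-43iΔEC mice (log2 difference -0.12, SE 0.48). The groups overlapped, and the sign was positive under 3 of 18 alternatives. Col1a1 stood at 246, 0 and 159 in the controls, against 412, 552 and 80.9 in TDP-43iΔEC mice. Its log2 difference of 3.53 (SE 2.22, limma adjusted p = 0.620) was 0.58 without control mouse 2, the library at 0. The 3 fibrillar collagen genes summed to 34.5, 37.6 and 42.2 CPM in control mice and to 78.3, 102 and 62.7 CPM in TDP-43iΔEC mice. With scaling by library size only, the median log2 difference of all genes tested was 0.18.

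Markers of other cells that make collagen were measured in the same libraries (plot of fibrillar collagens beside mural and fibroblast markers). The 12 mural cell markers summed to 602.5, 520 and 963 CPM in control mice and to 571, 1136 and 452 CPM in TDP-43iΔEC mice (exact permutation test, 2-sided, p = 0.9, smallest possible p 0.1), with 8 to 11 of 12 detected in control and 9 to 12 in TDP-43iΔEC mice. Rgs5 made up most of this sum, Cnn1 had a count in TDP-43iΔEC mouse 2 alone, and the pericyte gene Pdgfrb was at 0 in control mouse 2. The 12 fibroblast markers summed to 44.1, 15.7 and 40.0 CPM in control and to 46.7, 64.8 and 8.01 CPM in TDP-43iΔEC mice (exact p = 0.8), with 1 to 10 of 12 detected in control and 1 to 5 in TDP-43iΔEC mice. Pi16 was at 0 in every library, and Pdgfra was at 0 in control mouse 2 and all TDP-43iΔEC mice. TDP-43iΔEC mouse 3 had the lowest sum of both lists, and its Col3a1 level of 1821 was above every control mouse. TDP-43iΔEC mouse 2 had the highest sum of both lists and the highest Col3a1 level. The part of mural cells and fibroblasts in the Col3a1 level was not tested.

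**Figure D3:**
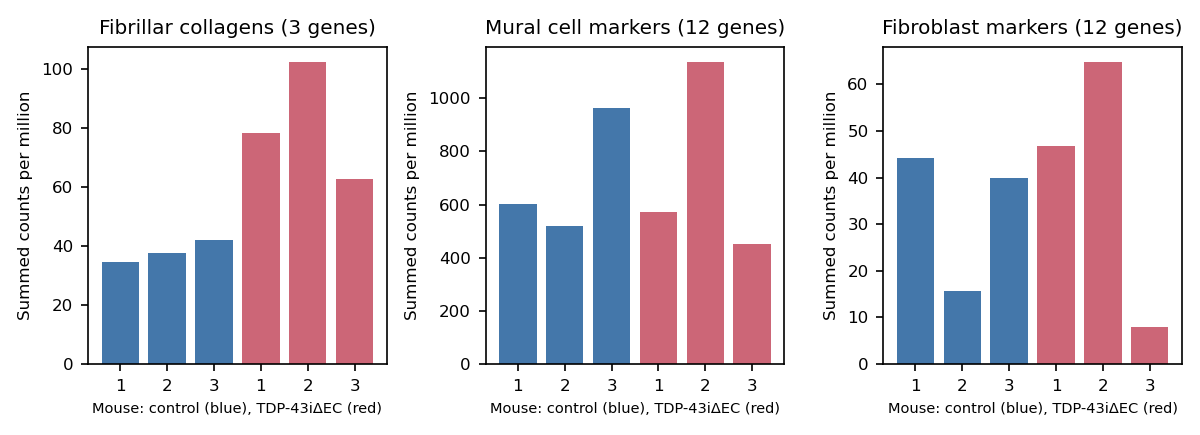
Summed CPM of the 3 fibrillar collagen genes, of 12 mural cell markers and of 12 fibroblast markers, 1 bar per mouse, with control mice in blue and TDP-43iΔEC mice in red. The collagen sums of the TDP-43iΔEC mice (62.7 to 102 CPM) lie above those of the control mice (34.5 to 42.2 CPM). With scaling by library size only, the median log2 difference of all genes tested was 0.18. Of the 3 collagen genes, Col3a1 alone had groups that did not overlap, and in Col1a1 and Col1a2 they overlapped. The bars of the groups overlap for both marker lists.

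Laminins are trimers of an α, a β and a γ chain, and in CNS vessels the α4 and α5 chains are those of the endothelial basement membrane. Lama5, the α5 gene (chromosome 2 from 179818166 to 179867712, 79 exons), was the laminin gene with an unadjusted p below 0.05. Lama5 stood at 6034, 8837 and 4774 normalized counts in the controls, against 5038, 3104 and 2286 in TDP-43iΔEC mice. TDP-43iΔEC mouse 1 lay above control mouse 3, so the groups overlapped. The log2 difference was -0.89 (SE 0.34, 95% interval -1.66 to -0.12, limma adjusted p = 0.488). The unadjusted p was below 0.05 in 13 of 18 alternatives, and above it without control mouse 2, which had the highest value, without TDP-43iΔEC mouse 2 or 3, and under scaling by library size or to the EC markers.

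Lama4, the laminin gene with the most counts, stood at 13074, 10023 and 13130.4 normalized counts in the controls, against 11194, 16480.0 and 16030.1 in TDP-43iΔEC mice. Its groups overlapped, at a log2 difference of 0.18 (SE 0.21). The ratio of Lama5 to Lama4 counts in the same library was 0.462, 0.882 and 0.364 in control mice and 0.450, 0.188 and 0.143 in TDP-43iΔEC mice. TDP-43iΔEC mice 2 and 3 lay below the control range in this ratio and mouse 1 within it, and the ratio was not tested. The β and γ chain genes Lamb1, Lamb2 and Lamc1 had log2 differences of 0.30 (SE 0.36), -0.18 (SE 0.17) and -0.12 (SE 0.27). The interval for Lamb2, from -0.57 to 0.20, was the narrowest of the 5 laminin genes.

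Among the nidogens and heparan sulfate proteoglycans, Agrn was the one gene of 4 with an unadjusted p below 0.05. Agrin is a heparan sulfate proteoglycan that binds laminin and is known for its part in the neuromuscular junction and the perivascular matrix. The gene lies on chromosome 4 from 156249740 to 156282014. Agrn stood at 15136, 11815 and 12489 normalized counts in the controls, against 8690.0, 9009 and 8656 in TDP-43iΔEC mice. The groups did not overlap, and the SD was 1756 in control and 194 in TDP-43iΔEC mice. The log2 difference was -0.61 (SE 0.17, 95% interval -1.01 to -0.22), a fold of 0.654, with a limma adjusted p = 0.353. Scaling by library size alone and scaling to the EC marker genes each ended at an unadjusted p above 0.05, while the difference stayed negative in 18 of 18 alternatives.

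Nidogens link the laminin and collagen IV networks. Nid1 stood at 18681, 20429.6 and 21878 normalized counts in the controls, against 17081, 18455 and 11723 in TDP-43iΔEC mice. The groups did not overlap, but TDP-43iΔEC mouse 2 and control mouse 1 lay close to each other. The log2 difference of -0.41 (SE 0.18) had an unadjusted p above 0.05 and a limma adjusted p = 0.544. Without the filter on low counts and without TDP-43iΔEC mouse 2 the unadjusted p of Nid1 was below 0.05. Nid2 ranged from 7812 to 11720.5 in control and from 6763 to 13590.4 in TDP-43iΔEC mice (log2 difference -0.01, SE 0.27), with 11.8% of its exonic bases on the other strand of an exon of Rtraf. Hspg2, which encodes perlecan, ranged from 7864 to 10648 and from 9180.4 to 11561 (log2 difference 0.09, SE 0.18).

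**Figure D4:**
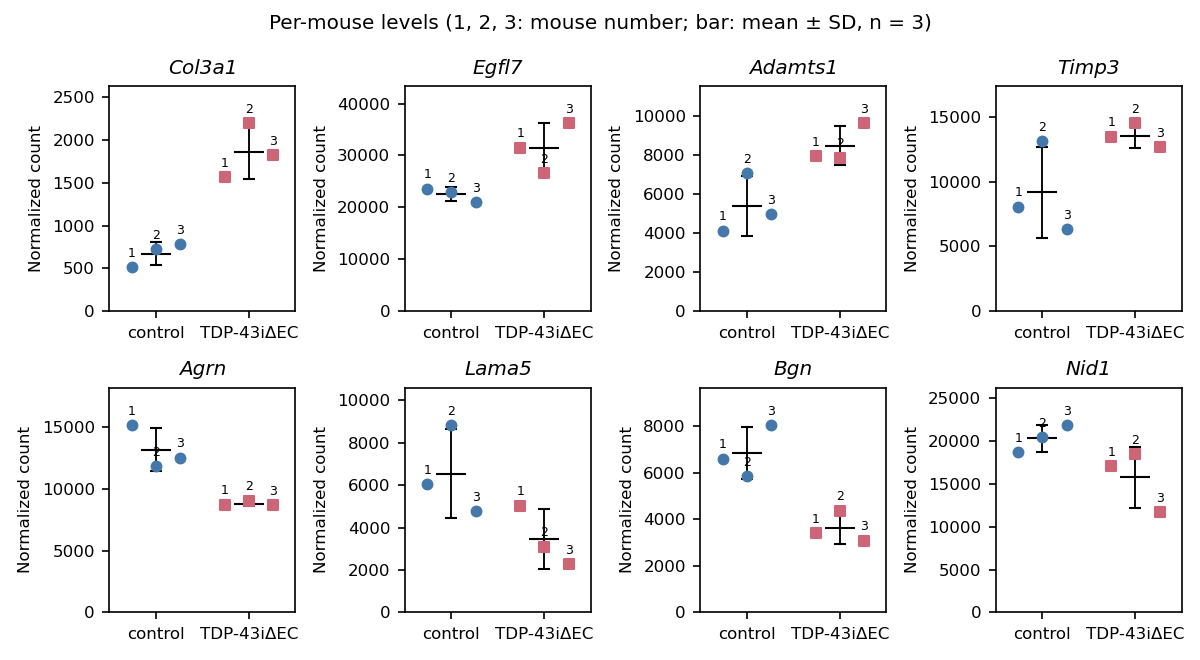
Normalized counts of 8 matrix genes in each mouse, with axes from 0; circles are control mice, squares TDP-43iΔEC mice, digits the mouse numbers within each group, and bars the mean ± SD (n = 3). In Col3a1, Egfl7 and Adamts1 all TDP-43iΔEC mice lie above all control mice, in Agrn, Bgn and Nid1 all lie below, and in Timp3 and Lama5 the groups overlap.

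None of the 8 genes for collagen processing had an unadjusted p below 0.05. Serpinh1, which encodes the collagen chaperone HSP47, stood at 15453, 9749 and 11523 normalized counts in the controls, against 13130.2, 22882 and 16159 in TDP-43iΔEC mice. The groups overlapped at TDP-43iΔEC mouse 1, and the log2 difference was 0.43 (SE 0.25, limma adjusted p = 0.606). Its unadjusted p was below 0.05 under scaling by library size, quantile normalization and EC marker scaling and without control mouse 1 or TDP-43iΔEC mouse 1, and its lowest adjusted p over 18 alternatives was 0.398. The lysyl hydroxylase genes Plod1 and Plod3 had log2 differences of -0.45 (SE 0.26) and -0.24 (SE 0.38). The prolyl hydroxylase genes P4ha1 and P4ha2, Plod2 and the crosslinking enzyme genes Lox and Loxl2 had standard errors from 1.12 to 2.71, too large to place their direction.

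The secreted glycoproteins and proteoglycans held the matrix genes with the most counts, and 2 of the 8 tested had an unadjusted p below 0.05, Bgn and Egfl7. Bgn encodes biglycan, a small leucine-rich proteoglycan of the pericellular matrix, and lies on chromosome X from 72527208 to 72539541. Bgn stood at 6597, 5859 and 8053 normalized counts in the controls, against 3399, 4374 and 3087 in TDP-43iΔEC mice. The groups did not overlap, and the log2 difference of -0.96 (SE 0.24, 95% interval -1.50 to -0.42), a fold of 0.514, had the lowest p of the matrix genes (limma adjusted p = 0.286). DESeq2 gave -0.92 (SE 0.26, adjusted p = 0.0298). The unadjusted p stayed below 0.05 in 18 of 18 alternatives. TDP-43iΔEC mouse 1, the library without Xist counts, lay between the other TDP-43iΔEC mice in Bgn, and without it the log2 difference was -0.91.

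Egfl7 encodes a secreted protein made mainly by ECs and hosts the microRNA miR-126, which was not measured here. The gene lies on chromosome 2 from 26468286 to 26486789. Egfl7 stood at 23609, 22868 and 21008 normalized counts in the controls, against 31470.2, 26595 and 36177 in TDP-43iΔEC mice. The groups did not overlap, and TDP-43iΔEC mouse 2 was the lowest of its group. The log2 difference was 0.43 (SE 0.15, 95% interval 0.10 to 0.76, limma adjusted p = 0.450). Without both libraries that stood apart, without TDP-43iΔEC mouse 1 and without control mouse 3 the unadjusted p was above 0.05. Of the exonic bases of Egfl7, 17.8% also lie in exons of other genes, mostly Agpat2 on the other strand, and the counting was not strand-aware.

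Sparc stood at 355893, 299784 and 322092 normalized counts in the controls, against 307655, 352938 and 348884 in TDP-43iΔEC mice. The groups overlapped, and the log2 difference of -0.01 had the narrowest interval of all matrix genes, from -0.21 to 0.20. Its unadjusted p was below 0.05 in opposite directions under EC marker scaling (0.22) and without the filter on low counts (-0.15). Sparcl1 ranged from 109979 to 144757 in control and from 101969 to 116662 in TDP-43iΔEC mice (log2 difference -0.24, SE 0.11, limma adjusted p = 0.558), and its unadjusted p was below 0.05 with the replicate block (-0.26) and without control mouse 3 (-0.34). The summed astrocyte markers, which belong to another source of Sparcl1, were 269, 219 and 263 CPM in control and 141, 195 and 179 CPM in TDP-43iΔEC mice (exact permutation p = 0.1, the smallest possible), with 5 to 8 of 8 markers detected in control and 3 to 6 in TDP-43iΔEC mice. Gja1 carried most of this sum, with 110.9 to 236 CPM, and each of the other 7 markers had at most 25.2 CPM in any library. The sum and its exact p therefore mainly follow 1 gene. In normalized counts Gja1, Slc1a2 and S100b did not overlap between the groups, while Gfap, Aqp4, Slc1a3, Aldh1l1 and Aldoc overlapped. The part of astrocytes in the Sparcl1 level was not tested. Mmrn2, an EC glycoprotein gene, ranged from 2106 to 7383 and from 3540.2 to 7777, and Emilin1, from the same family, from 116 to 430.1 and from 55.3 to 824, with overlapping groups in both.

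Thbs1, Tgfbi and Vcan each had 2 or more libraries at 0. Thbs1, the gene for the angiogenesis inhibitor thrombospondin-1, stood at 99.0, 0 and 0 normalized counts in the controls, against 493, 39.4 and 34.1 in TDP-43iΔEC mice (log2 difference 5.37, SE 2.64, limma adjusted p = 0.560). Tgfbi had 738 in TDP-43iΔEC mouse 2 and 0 in TDP-43iΔEC mice 1 and 3, against 172, 0 and 155 in control mice (log2 difference -2.11). Vcan, a large proteoglycan gene, had 513, 0 and 88.0 in TDP-43iΔEC mice and at most 2.43 in control mice. Vcan did not pass the filter on low counts, and in Thbs1 and Tgfbi the wide standard errors (2.64 and 3.60) give no reliable size.

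Of the proteases and inhibitors, Adamts1 and Timp3 had an unadjusted p below 0.05. Adamts1 is a secreted metalloprotease that cleaves proteoglycans and can bind VEGF, and its gene lies on chromosome 16 from 85590579 to 85600009. Adamts1 stood at 4124, 7077 and 4969 normalized counts in the controls, against 7935, 7860.2 and 9626 in TDP-43iΔEC mice. The groups did not overlap, and control mouse 2 came closest to the TDP-43iΔEC mice. The log2 difference was 0.63 (SE 0.23, 95% interval 0.12 to 1.15, limma adjusted p = 0.471). The unadjusted p was above 0.05 without control mouse 1 or 3 and without TDP-43iΔEC mouse 3.

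Timp3 encodes a matrix-bound inhibitor of metalloproteases that also inhibits ADAMTS enzymes. Timp3 stood at 8079, 13136 and 6309.6 normalized counts in the controls, against 13494, 14503 and 12678 in TDP-43iΔEC mice. Control mouse 2 lay within the TDP-43iΔEC range, and the TDP-43iΔEC mice were close to each other, with an SD of 914 against 3543 in control mice. The log2 difference was 0.60 (SE 0.24, 95% interval 0.05 to 1.15, limma adjusted p = 0.513). The unadjusted p was below 0.05 in 12 of 18 alternatives, and above it in edgeR, in DESeq2 and without control mouse 1 or 3 or TDP-43iΔEC mouse 1 or 2. Timp3 lies within the gene Syn3 on the opposite strand, and 21.3% of its exonic bases are shared with it. The membrane-type metalloprotease genes Mmp14 and Mmp15 had log2 differences of 1.74 (SE 2.19) and -0.20 (SE 0.46), and Timp2 of 3.51 (SE 2.00). The summed level of the 5 genes was 399, 520 and 345 CPM in control mice and 675, 757 and 641 CPM in TDP-43iΔEC mice, of which most came from Timp3 and Adamts1. With scaling by library size only, the median log2 difference of all genes tested was 0.18.

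Other genes of matrix assembly were read from a wider list of 120 genes, of which 75 were tested. None passed the adjusted threshold in limma, and 8 had an unadjusted p below 0.05, or 10.7%, close to the 9.27% of all genes. They were 4 in each direction, where the backgrounds were 4.26% higher and 5.0% lower. Groups did not overlap in 16 (21.3%), against the 15.0% of all genes. Of the 8, 7 had groups that did not overlap. Spock2, a testican proteoglycan gene, stood at 39028, 37942 and 31496 normalized counts in the controls, against 15235, 20785 and 18871 in TDP-43iΔEC mice (log2 difference -1.05, SE 0.16, limma adjusted p = 0.0567). The authors reported Spock2 as downregulated in TDP-43iΔEC cells, also from limma with voom. Ltbp4, which encodes a microfibril protein that binds latent TGF-β, had 23137, 29143 and 17871 in control and 12876, 11086 and 8733 in TDP-43iΔEC mice (log2 difference -1.09, SE 0.22, adjusted p = 0.195). The sheddase gene Adam10 (-0.53, SE 0.17) and the collagen IV chain gene Col4a5 (-5.08, SE 2.09, at most 368 normalized counts) also had negative log2 differences.

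On the positive side stood Tinagl1, a gene for a basement membrane glycoprotein, with 3272, 3081 and 1688 normalized counts in control and 4828, 5802 and 5737 in TDP-43iΔEC mice (log2 difference 1.03, SE 0.28, adjusted p = 0.338). Fkbp10 and P4hb, a procollagen chaperone gene and the gene for the β subunit of prolyl 4-hydroxylase, had log2 differences of 0.68 (SE 0.23) and 0.36 (SE 0.14). Of the exonic bases of Fkbp10, P4hb and Ltbp4, 25.5%, 21.2% and 17.3% also lie in exons on the other strand. Fn1, the fibronectin gene, had a log2 difference of 0.07 (SE 0.13).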

How the data were processed

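Total RNA of FACS-sorted spinal cord ECs was made into SMARTseq2 libraries, sequenced in pairs. Per the labels and methods, the authors mapped reads to GRCm39 with STAR 2.7.8a and estimated counts per GENCODE gene with RSEM 1.3.0 at default options, which use no strand. The deposited estimated counts are whole numbers, unscaled and unfiltered. PCR copies were not removed by molecular identifiers, so the floor of 3 counts covers counting error only, while the limma intervals rest on the spread between the mice. Totals were 44041329, 45329494 and 47270654 in control and 45010088, 28228980 and 25704871 in TDP-43iΔEC mice.

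Genes were filtered with filterByExpr, scaled by TMM (edgeR 4.0.16) and tested in R 4.3.3 with limma-voom 3.58.1 without covariates, with Benjamini-Hochberg adjustment over 13107 genes and a threshold of 0.05. Normalized counts used the size factors of DESeq2 1.42.0. Marker sums were compared by an exact 2-sided permutation test, which cannot go below 0.1 with 3 against 3 mice, and p values were adjusted over the 8 marker lists (lowest 0.267). Positions and sequences came from GRCm39 and the GENCODE M39 annotation, which matched 98.7% of gene identifiers. RefSeq sequence tables were not used. The procedures were tested on simulated data. Alternatives were edgeR, DESeq2, sample weights, other scalings and filters, the replicate block and leaving out mice.

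Shared mouse numbers were not treated as pairs in the main fit, since the labels name no pairing. Genes with an unadjusted p below 0.05 or groups without overlap, and the gene with the most counts in each role group, are given by mouse. Of other matrix genes, those with an unadjusted p below 0.05 and no overlap are named. The 39 genes and all lists were chosen with earlier results of these data known. The labels name separate samples, and p values measure the spread between them.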

Additional observations from a re-analysis of the deposited data

How the results depend on the processing

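The number of matrix genes past the adjusted threshold was 0 in limma and under every alternative but DESeq2, which gave 2. Among all genes, limma gave 18, edgeR 0 (848 at an unadjusted p below 0.05), DESeq2 250, library-size scaling 10, quantile normalization 40, EC marker scaling 0 (1260 unadjusted), no filter 76, at least 10 counts in every library 39, an adjusted threshold of 0.1 31, leaving out 1 mouse 0 to 13, and leaving out both libraries that stood apart, an alternative chosen after seeing the data, 0 (1026 unadjusted). Of other matrix genes, 5 had an unadjusted p below 0.05 in edgeR and 14 under quantile normalization. Tardbp had a log2 difference of -1.65 in DESeq2 (adjusted p = 0.0216) and of -1.62 in limma (adjusted p = 0.287). With the replicate block, 0 matrix genes passed, 8 had an unadjusted p below 0.05 and 22 of all genes passed. Same-numbered mice had correlations of -0.06, -0.11 and -0.02 of their deviations, which with 3 mice per group cannot exclude a pairing. The median of all genes moved to 0.18 under library-size scaling, 0.21 under EC marker scaling and -0.17 without control mouse 2. The median of the matrix genes lay between 0.027 and 0.42 over all alternatives. An unadjusted p below 0.05 also arose for Timp2 in DESeq2 and without TDP-43iΔEC mouse 3, and for Vcan without the filter and without TDP-43iΔEC mouse 2. It arose for Thbs1 and Loxl2 without control mouse 1, Lamb1 without TDP-43iΔEC mouse 1, Plod1 without TDP-43iΔEC mouse 2 and Emilin1 without TDP-43iΔEC mouse 3. Of the 37 tested genes, 21 kept their sign in all alternatives, the 7 with an unadjusted p below 0.05 among them. The sign of the others turned in the log2 differences below. Nid2 had 0.083 in edgeR, 0.12 in DESeq2, 0.22 with sample weights, 0.028 with DESeq2 size factors, 0.18 with library size, 0.055 with quantile normalization, 0.23 with EC markers, 0.019 with ribosomal, hemoglobin and mitochondrial genes left out, 0.022 with at least 10 counts, 0.035 with the block and 0.46 without both libraries. Sparc had, in the same order but without sample weights, block and both libraries, 0.0067, 0.045, 0.031, 0.19, 0.19, 0.22, 0.033 and 0.027. Lamc1 had 0.020 in edgeR, 0.055 in DESeq2, 0.025 with sample weights, 0.077 with library size, 0.12 with EC markers and 0.28 without both libraries. Tgfbi had 1.11 in edgeR and 1.17 in DESeq2. Library size gave Col1a2 0.044 and Lamb2 0.0083, EC markers gave them 0.14 and 0.045 and Mmp15 0.021, quantile normalization gave Sparcl1 0.024, and leaving out both libraries gave Col8a1 -0.96 and Emilin1 -0.22. With 1 mouse left out, the range was -0.25 to 0.33 for Nid2, -0.086 to 0.066 for Sparc, -0.36 to 0.22 for Lamc1, -5.52 to 0.022 for Tgfbi, -0.31 to 0.078 for Col1a2, -0.63 to 0.079 for Mmp15, -0.46 to 0.084 for Plod3, -3.07 to 0.12 for Plod2, -0.32 to 5.31 for P4ha1, -0.34 to 3.26 for Lox, -0.83 to 3.17 for Mmp14 and -0.029 to 0.19 for Hspg2. The cause was not tested. Genes with few counts cannot be placed at this depth and number of mice.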

Other observations

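TDP-43 is known to bind UG repeats in RNA, so the gene spans were searched on the sense strand for runs of 6 or more consecutive TG in GRCm39. Of the 37 tested matrix genes, 28 (75.7%) held a run, against 66.1% of 13060 tested genes with a position. The matrix genes were longer, with a median span of 36742 bp against 22573 bp, and the medians per 100 kb were 6.87 and 6.51. Among the genes with an unadjusted p below 0.05, Col3a1 had 2 runs, Timp3 7, Lama5 2 and Bgn 2, and Agrn, Egfl7 and Adamts1 had none. The longest run of Bgn, 28 repeats on chromosome X from 72534197 to 72534252, overlaps an annotated exon, and it was the one such case among the 39 genes. These are counts of letters in the genome, and binding was not measured.

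The ratio of Nid1 to Nid2 counts was 2.00, 1.74 and 2.80 in control mice and 2.53, 1.36 and 1.07 in TDP-43iΔEC mice, so the groups overlapped at TDP-43iΔEC mouse 1, as did the ratios of Lama5 to Lama4 and of Col4a1 to Col4a2.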
